A study of Rattus norvegicus with 30 samples.

Results

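Gene expression in the amygdala was compared between adult male Sprague Dawley rats that showed an extreme behavioral response after predator-scent stress and males that showed a minimal response to it. The comparison used 10 of the 30 arrays of the study, those of rats whose identifier ends in R and whose group was Extreme Behavioral Response (5 rats) or Minimal Behavioral Response (5 rats). All 10 rats had been exposed, so exposure itself was shared, and by the labels each array is from a rat of its own. The other arrays came from 5 unexposed, behaviorally tested male controls and from 5 control, 5 minimal and 5 extreme females. The labels used here do not state how the response was scored or how long after exposure the tissue was taken. RNA from dissected amygdala was measured on Illumina arrays, and the values are the log2 intensities deposited by the authors. Of 22523 probes, 13308 lay above the array median on at least 5 of the 30 arrays and were tested. Of these, 9358 carried a gene symbol, and they stand for 9165 genes. A probe is called here when its Benjamini-Hochberg adjusted p in limma, over all tested probes, was under 0.05.

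The amygdala is a group of nuclei in the temporal lobe that assigns emotional value to stimuli and drives fear and anxiety behavior. It holds glutamatergic projection neurons in its basolateral part and mostly GABAergic neurons in its central part, which resemble those of the striatum. Predator scent activates this circuit in rodents, and rats exposed to it differ from each other in how long anxiety-like behavior and startle stay raised. Corticosterone released under stress acts on the amygdala through the glucocorticoid and mineralocorticoid receptors, which control genes such as Fkbp5, Sgk1 and Tsc22d3.

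Before the groups are compared, a split of the arrays has to be described. A set of 8 probes parted all 30 arrays into a lower and a higher state, with a gap of at least 1 on the log2 scale. Of these probes 3 carry the names of proteins of the large ribosomal subunit, Rpl7, Rpl23 and Rpl37l1, and the others have no symbol. The lower state held the arrays of all 5 extreme males. It also held 1 of the 5 minimal males, minimal rat 1, and the other 4 minimal males were in the higher state. Male controls were all in the higher state (5 of 5), and female controls were all in the lower state (5 of 5). Among the exposed females the state was mixed, with 2 of 5 minimal and 1 of 5 extreme arrays in the lower state. In males, response and array state therefore ran together in 9 of the 10 arrays. The origin of the state was not tested. The called named genes, and further genes where it is stated, are given with their difference against minimal rat 1 alone, the minimal array that shares the state of the extreme arrays. They are also set beside the difference between lower-state and higher-state arrays in the 10 exposed females, which share no array with the male comparison. The state itself was defined on all 30 arrays, these females included. In these females, marker lists of tissue content also differed between the states, with 0 of their genes called. Median lower-minus-higher differences were 0.98 over 14 thalamus genes and 0.82 over 21 myelin genes. They were -0.43 over 17 excitatory pallial and -0.37 over 16 inhibitory neuron genes. The male medians of these lists were 0.02, 0.26, 0.01 and 0. The part of tissue content in the female state differences was not tested.

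The arrays carried the RNA of forebrain neurons. Camk2a, a kinase of excitatory forebrain synapses, lay between 9.11 and 9.60 in the 10 arrays, and Gad1, an enzyme that makes GABA, lay between 11.60 and 12.06. Both were above the array median of 7.02 on 10 of 10 arrays. Slc17a6, the vesicular glutamate transporter of thalamus and hypothalamus, was also above the median on 10 of 10 arrays, at 7.96 to 9.24. Of 10 symbols of Xist and Y-linked genes looked up among the named probes 0 were found, so no gene could check the labelled sex. Correlations between 2 of the 10 arrays lay between 0.977 and 0.9946. In tissue RNA, fewer cells of a type and less RNA per cell cannot be told apart, which applies to every difference given here.

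Few probes separated the male groups. Of the 13308 probes, 19 were called, which is 0.143% of those tested. Higher in extreme responders were 5 probes (0.0376%), and lower were 14 probes (0.105%). Their adjusted p lay between 0.0361 and 0.0497, all just under the threshold. The 5 called probes with a gene symbol were those of Sgca, Ptn, Rpl7, Akt1 and Twnk. In 14 of the 19 probes the values of the groups did not overlap. The 19 were chosen by a test on these same values, which favours probes without overlap, so this count is a description and no further support. The share without overlap over all tested probes was not counted.

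Sgca, which encodes alpha-sarcoglycan of the dystrophin-associated membrane complex known from muscle, was lower in extreme responders. Its log2 intensity in minimal rats 1 to 5 was 8.37, 8.88, 8.57, 8.55 and 8.46, and in extreme rats 1 to 5 it was 7.94, 7.76, 7.94, 7.98 and 7.93. Every extreme value lay below every minimal value. The group means were 8.56 ± 0.19 and 7.91 ± 0.09 (SD, n = 5 each), a difference of -0.65 ± 0.09 (SE, adjusted p = 0.0361), or 1.57-fold lower. The 5 male controls lay between 8.00 and 8.59, also above all extreme values. Against minimal rat 1 alone the difference was -0.46, and the lower state in exposed females differed from the higher by -0.34 ± 0.15 (adjusted p = 0.252).

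Ptn encodes pleiotrophin, a heparin-binding growth factor that acts on neurite outgrowth and glia. In minimal rats 1 to 5 it read 8.31, 8.85, 8.55, 8.86 and 8.72, and in extreme rats 1 to 5 it read 8.01, 7.77, 8.05, 8.08 and 8.24. The groups did not overlap, but minimal rat 1 lay only just above extreme rat 5. The difference was -0.63 ± 0.11 (adjusted p = 0.0457), or 1.55-fold lower, and it was -0.28 against minimal rat 1 alone. Lower-state females differed from higher-state females by -0.34 ± 0.12 (adjusted p = 0.196).

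Akt1, a serine/threonine kinase that carries insulin and growth factor signals, was higher in extreme responders. It measured 9.25, 9.06, 9.09, 9.03 and 8.90 in minimal rats 1 to 5, and 9.59, 9.40, 9.70, 9.48 and 9.67 in extreme rats 1 to 5. All extreme values were above all minimal values and above the male controls, which lay between 8.90 and 9.22. The difference was 0.51 ± 0.09 (adjusted p = 0.0404), or 1.42-fold. It was 0.32 against minimal rat 1, the highest of the minimal rats, and the state difference in exposed females was 0.54 ± 0.12 (adjusted p = 0.0652).

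Twnk, the helicase that unwinds mitochondrial DNA during its replication, was the other named gene that was higher. Its values were 8.91, 8.79, 8.88, 8.84 and 8.81 in minimal rats 1 to 5, and 9.26, 9.21, 9.33, 9.43 and 9.14 in extreme rats 1 to 5. The minimal rats lay close together, and the lowest extreme rat was 9.14, above all of them and above the highest male control at 9.13. The difference was 0.43 ± 0.07 (adjusted p = 0.0404), or 1.35-fold, and it was 0.37 against minimal rat 1 alone. The state difference in exposed females was 0.22 ± 0.10 (adjusted p = 0.281).

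Rpl7 had the largest difference among the named called genes, and it is one of the probes that define the array state. It read 10.43 in minimal rat 1 and 12.47, 12.30, 12.53 and 12.31 in minimal rats 2 to 5, against 10.39, 10.34, 10.23, 9.94 and 9.99 in extreme rats 1 to 5. Minimal rat 1 stood beside the extreme rats, just above the highest of them. The difference was -1.83 ± 0.31 (adjusted p = 0.0404), but only -0.25 against minimal rat 1. In exposed females, lower-state arrays differed from higher-state arrays by -2.49 ± 0.18 (SE). This probe helped to define the state on all 30 arrays, so that value is a description with no test. Response and array state cannot be told apart for this probe.

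**Figure D1:**
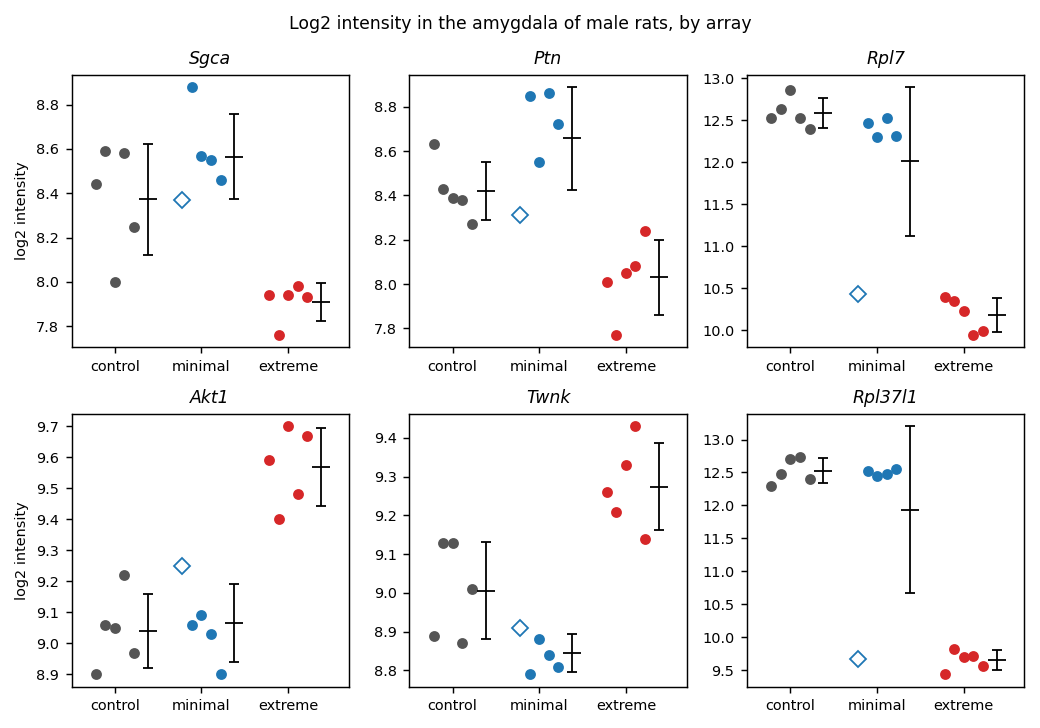
Log2 intensity (vertical axes, a separate scale for each gene) of the 5 called named genes and of Rpl37l1 in the 15 male arrays by group. Each point is 1 rat, the open diamond is minimal rat 1, and bars beside the points are the mean and SD of 5 rats. Extreme rats lie apart from both other groups for Sgca, Ptn, Akt1 and Twnk, while for Rpl7 and Rpl37l1 minimal rat 1 lies beside them.

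The other 14 called probes had no gene symbol. Their differences were between 0.44 and 3.21 in size on the log2 scale. The largest fall was that of ILMN_1372187, which read 7.89 in minimal rat 1, 11.43 to 11.63 in the other minimal rats and 7.43 to 7.75 in the extreme rats, a difference of -3.21 ± 0.55. It is a probe of the array state, chosen for its gap between the states, and lower-state females differed from higher-state females by -3.98. ILMN_1356573 fell by 0.54 ± 0.09 (adjusted p = 0.0404). That probe measured 8.03 in minimal rat 1 and 7.76 to 7.93 in the other minimal rats, against 7.14 to 7.53 in the extreme rats. Its difference against minimal rat 1 was -0.68, and the state difference in females was -0.23 ± 0.15 (adjusted p = 0.436). Among the probes that were higher, ILMN_1351972 rose by 0.78 ± 0.14 and ILMN_1361843 by 0.48 ± 0.08 (adjusted p = 0.0404 each). They differed by 0.18 and 0.30 against minimal rat 1 alone. Their state differences in exposed females were 0.87 ± 0.10 (adjusted p = 0.00571) and 0.41 ± 0.09 (adjusted p = 0.0748).

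The called probes moved in the same direction as the array state in the exposed females. In the 10 exposed females, 124 of the 13308 probes (0.932%) differed between lower-state and higher-state arrays, and 8 of these were the probes that defined the state. Of the 19 male calls, 19 had the direction of lower minus higher state there, against 61.7% of all tested probes, and 9 of the 19 (47.4%) were called. Among the calls 6 were probes of the state itself. Of the 13 that were not, 13 had that direction and 3 were called in females. All 19 also had the same sign against minimal rat 1 alone, as did 8611 of all 13308 probes (64.7%). Since minimal rat 1 was in the comparison that chose the 19, this sign was partly fixed by the choice. With the array state as a covariate in the 10 arrays, the response difference rests on that single minimal array, so the test could hardly call any probe. Limma called 0 there (491 probes at an unadjusted p under 0.05, against 1546 without the covariate), which says nothing about the 19 calls.

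**Figure D2:**
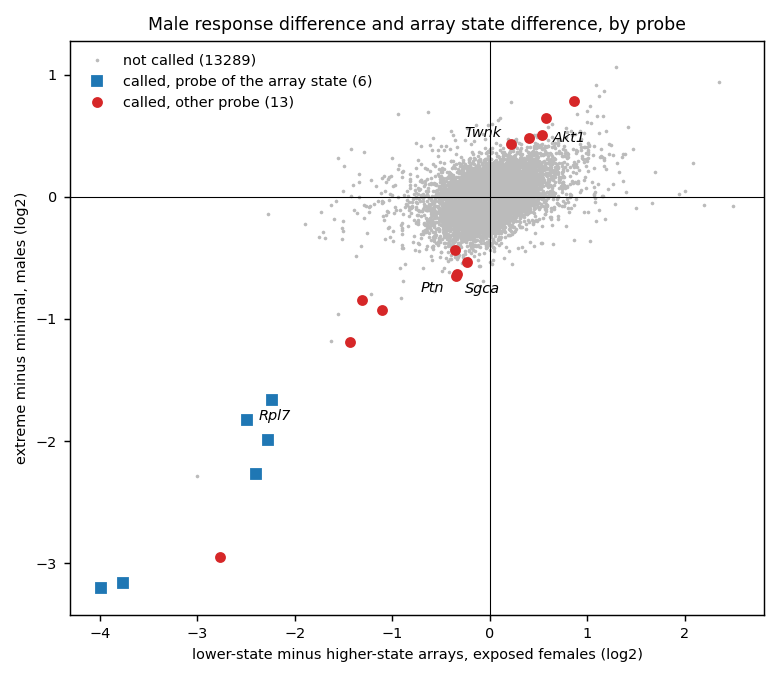
Difference between extreme and minimal males (vertical axis, log2) against the difference between lower-state and higher-state arrays in the 10 exposed females (horizontal axis, log2), 1 point for each of the 13308 probes. Squares are the 6 called probes that define the array state, circles the 13 other called probes and small points the 13289 probes not called, and all 19 called probes lie either below 0 or above 0 on both axes.

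The calls also depended on single arrays. In 9 of the 10 fits that left out 1 array none of the 19 calls was kept. The differences themselves moved little over these 10 fits, from -0.70 to -0.58 for Sgca, -0.72 to -0.56 for Ptn, 0.46 to 0.55 for Akt1 and 0.39 to 0.46 for Twnk. Rpl7 ran from -2.22 to -1.70. The highest adjusted p of these genes in limma over the 10 fits lay between 0.187 and 0.199. Over the other settings tried the differences moved more. They ran from -0.65 to -0.40 for Sgca, -0.70 to -0.28 for Ptn and 0.15 to 0.56 for Akt1. For Twnk they ran from 0.28 to 0.45 and for Rpl7 from -2.06 to 0.04. Without minimal rat 1, the minimal array in the lower state, 209 probes (1.57% of those tested) were called (117 higher and 92 lower, 123 of them named), which included all 19. Of those 209, 192 (91.9%) had the direction of the state in exposed females, against 62.6% of all tested probes, and 41 were called there. Against minimal rat 1, which that fit did not use, 136 of the 209 (65.1%) had the same sign, against 56.3% of all tested probes. Both differences share the extreme arrays that helped to choose the 209, so this sign too was partly fixed by the choice.

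Ribosomal protein genes held the largest differences among the named genes. Of 62 measured genes for cytosolic ribosomal proteins, 0 were called higher and 1 was called lower, Rpl7. The median difference of the list was -0.06, with 21 positive and 41 negative, beside a median of 0.00 over the 9165 named genes, of which 4579 were positive. Rpl37l1 read 9.68 in minimal rat 1, 12.53, 12.44, 12.48 and 12.56 in minimal rats 2 to 5, and 9.44 to 9.83 in the extreme rats, with a difference of -2.28 ± 0.43 (adjusted p = 0.0553). Rpl23 read 11.66 in minimal rat 1, 13.04 to 13.15 in the other minimal rats and 11.40 to 11.79 in the extreme rats, with a difference of -1.18 ± 0.23 (adjusted p = 0.0607). For Rps29, a protein of the small subunit, the difference was -0.80 ± 0.17 (adjusted p = 0.103). Against minimal rat 1 alone these 3 genes differed by -0.02, -0.03 and 0.00, values that rest on the 1 minimal male in the lower state. Rpl37l1 and Rpl23 defined the state, so for them this closeness was largely fixed by the choice. The state differences of the 3 genes in exposed females were -3.0, -1.63 and -1.21, of which the first 2 again belong to probes that defined the state. Ribosomal protein genes have many near-identical copies in the rat genome, and the signal of such a probe cannot be assigned with certainty to the named copy.

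Among the named genes that came closest to the threshold, several showed no overlap between the groups, which their choice by small p on these arrays favours. Ythdc1, a nuclear reader of N6-methyladenosine in RNA, read 10.51, 10.62, 10.43, 10.51 and 10.50 in minimal rats 1 to 5 and 11.00, 10.85, 10.91, 10.79 and 10.85 in extreme rats 1 to 5. The difference was 0.36 ± 0.07 (adjusted p = 0.0676), and it was 0.37 against minimal rat 1. In exposed females the state difference of Ythdc1 was -0.02 ± 0.09 (adjusted p = 0.946). Dnajb5, a cochaperone of the heat shock protein 40 family, read 8.43 to 8.75 in minimal and 8.87 to 9.21 in extreme rats, a difference of 0.46 ± 0.09 (adjusted p = 0.0841). It was 0.40 against minimal rat 1, with a state difference of -0.16 ± 0.21 in females. Apbb1, an adaptor that binds the amyloid precursor protein, differed by -0.42 ± 0.08 (adjusted p = 0.0553), with 9.86 to 10.11 in minimal and 9.40 to 9.67 in extreme rats. Plpp3, a membrane phosphatase of bioactive lipids that astrocytes express, differed by 0.49 ± 0.10 (adjusted p = 0.0857), with 11.80 to 12.07 in minimal and 12.13 to 12.64 in extreme rats. Apbb1 differed by -0.32 and Plpp3 by 0.42 against minimal rat 1 alone. Their state differences in exposed females, -0.36 ± 0.11 (adjusted p = 0.123) and 0.44 ± 0.16 (adjusted p = 0.193), were close in size to their male differences. The exact permutation p of a single gene without overlap is 0.00794 two-sided over all splits of the 10 arrays into groups of 5, the smallest this design can give.

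In other genes near the threshold minimal rat 1 was the minimal rat nearest to the extreme rats. Agpat1, an enzyme of phosphatidic acid synthesis, read 8.43 in minimal rat 1, 8.81 to 8.90 in the other minimal rats and 8.14 to 8.47 in extreme rats (difference -0.53 ± 0.10, adjusted p = 0.0553). Cbx6, a Polycomb protein, read 8.85 in minimal rat 1, 8.07 to 8.37 in the others and 8.82 to 9.04 in extreme rats (difference 0.57 ± 0.12, adjusted p = 0.101). Nop53, a factor of ribosome assembly, differed by -0.58 ± 0.12 (adjusted p = 0.0742), Clip1, which binds growing microtubule ends, by -0.39 ± 0.08 (adjusted p = 0.0841), and M6pr, a sorting receptor for lysosomal enzymes, by 0.43 ± 0.09 (adjusted p = 0.0841). In exposed females, lower-state arrays differed from higher-state arrays by -0.43 for Agpat1, 0.60 for Cbx6, -0.47 for Nop53, -0.20 for Clip1 and 0.51 for M6pr. The differences of these genes against minimal rat 1 alone, in the same order, were -0.18, 0.08, -0.35, -0.20 and 0.17. None of these 5 genes passed the threshold in either comparison. Actb, which encodes beta-actin, has 3 probes, with male differences of 0.42 (adjusted p = 0.192), 0.92 (adjusted p = 0.0553) and 1.06 (adjusted p = 0.102). The state differences of these 3 probes in females were 0.56, 1.09 and 1.30, so this gene, often used as a loading reference, read higher in lower-state arrays.

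Genes of the stress hormone axis were not called in males. Of 20 measured glucocorticoid-induced genes 0 were called in either direction by limma, with 1 higher and 3 lower at an unadjusted p under 0.05. Of all 9165 named genes, 527 were higher and 532 lower at that p. The median of the list was -0.11, with 14 negative differences, against 0.00 for all named genes. Of 8 genes for corticosteroid receptors and their chaperone complex 0 were called, with a median of 0.09. The glucocorticoid receptor gene Nr3c1 read 6.50 to 7.08 in minimal and 6.78 to 7.03 in extreme rats, a difference of -0.03 ± 0.10 (adjusted p = 0.954). The mineralocorticoid receptor gene Nr3c2 read 7.05 in minimal rat 1, 7.46 to 7.59 in the other minimal rats and 7.14 to 7.55 in extreme rats, a difference of -0.02 ± 0.11 (adjusted p = 0.975). Fkbp5, a cochaperone that limits glucocorticoid receptor activity, differed by -0.12 ± 0.13 (adjusted p = 0.793), and its groups overlapped. Sgk1, a kinase induced by corticosteroids, read 10.98, 10.56, 11.48 and 10.88 in minimal rats 2 to 5 and 10.62 in minimal rat 1, against 11.32, 10.82, 10.42, 10.66 and 10.45 in extreme rats 1 to 5. Its difference was -0.17 ± 0.18 (adjusted p = 0.784), smaller than the SD of 0.37 within each group. Nfkbia, the inhibitor of NF-kappaB that is induced by glucocorticoids and by inflammation, read 9.57 in minimal rat 1, 10.06 to 10.97 in the other minimal rats and 9.66 to 10.12 in extreme rats, with a difference of -0.44 ± 0.19 (adjusted p = 0.391). Errfi1, an inhibitor of epidermal growth factor receptor signalling, and the transcription factor Cebpb each differed by -0.28 (adjusted p = 0.427 and 0.331).

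Genes of neuropeptides and neuronal activity did not pass the threshold either. Of 26 stress neuropeptide genes and receptors 0 were called, with a median of 0.03 and, at an unadjusted p under 0.05, 1 higher and 1 lower. Crh, the corticotropin-releasing hormone, differed by -0.20 ± 0.10 (adjusted p = 0.495), and Crhbp, its binding protein, by -0.33 ± 0.10 (adjusted p = 0.214). Crhbp lay between 9.05 and 9.41 in minimal rats and between 8.70 and 9.15 in extreme rats, so the groups overlapped only through minimal rat 2 and the extreme rats 2 and 5. Crhbp differed by -0.40 against minimal rat 1 alone. Npy, the neuropeptide Y of interneurons, differed by 0.37 ± 0.16 (adjusted p = 0.401), and minimal rat 1 at 10.87 stood among the extreme rats. Of 18 immediate early genes 0 were called (median -0.02). Fos, a marker of recent neuronal activity, read 7.56 to 8.87 in minimal and 7.60 to 8.79 in extreme rats, which is almost the same range. Of 9 neurotrophin genes and receptors 0 were called. Bdnf, the brain-derived neurotrophic factor, read 8.22 to 8.38 in minimal rats and 8.57, 8.27, 8.64, 8.54 and 8.51 in extreme rats 1 to 5. Its difference was 0.22 ± 0.08 (adjusted p = 0.315), and 4 of the 5 extreme rats were above all minimal rats. It was 0.22 against minimal rat 1 as well, and the state difference in females was -0.49 ± 0.30. Its receptor gene Ntrk2 differed the other way, by -0.21 ± 0.09 (adjusted p = 0.376). Of 12 circadian clock genes 0 were called (median 0.07).

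Genes of protein turnover and energy metabolism were not called. Among 40 proteasome genes 0 were called, and 27 differences were negative (median -0.10), with 2 higher and 10 lower at an unadjusted p under 0.05. Beside this and the lists below, 527 of the 9165 named genes were higher and 532 lower at that p. Psmc6, an ATPase of the regulatory particle, read 7.58 in minimal rat 1, 8.01 to 8.29 in the other minimal rats and 7.30 to 7.70 in extreme rats (difference -0.53 ± 0.13, adjusted p = 0.122). Psma1, a subunit of the core particle, differed by -0.38 ± 0.10 (adjusted p = 0.147), and its minimal values of 8.66 to 8.95 did not overlap with the extreme values of 8.13 to 8.64. For both genes the state difference in females was small, 0.00 for Psmc6 and 0.03 for Psma1, while against minimal rat 1 alone they differed by -0.06 and -0.25. Of 57 mitochondrial ribosomal protein genes 0 were called (median -0.05, with 1 higher and 8 lower at an unadjusted p under 0.05), and Mrpl18 was lowest at -0.41 ± 0.10 (adjusted p = 0.116). In the list of 68 oxidative phosphorylation genes 0 were called, the median was -0.01, and 5 were higher and 5 lower at an unadjusted p under 0.05. Atp5pf and Ndufaf5 lay at its ends. Atp5pf, a coupling subunit of ATP synthase, read 12.75 in minimal rat 1, 11.66 to 11.98 in the other minimal rats and 12.63 to 12.79 in extreme rats (difference 0.74 ± 0.16, adjusted p = 0.103). Against minimal rat 1 alone this was -0.03, and the state difference in females was 1.03 ± 0.13 (adjusted p = 0.00947). Ndufaf5, an assembly factor of complex I, read 10.18 to 10.43 in minimal and 9.78 to 10.18 in extreme rats (difference -0.38 ± 0.09, adjusted p = 0.109), with a state difference of -0.04 in females.

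Genes of chaperones and glycolytic enzymes were also below the threshold. Of 23 heat shock chaperone genes 0 were called (median 0.02), and of 21 endoplasmic reticulum chaperone genes 0 were called (median 0.05). Hspe1, the mitochondrial heat shock protein 10, differed by -0.69 ± 0.14 (adjusted p = 0.0912). It read 10.10 in minimal rat 1, below the 10.57 to 10.74 of the other minimal rats, and its state difference in females was -0.89 ± 0.15 (adjusted p = 0.0289). Hsp90b1, a chaperone of the endoplasmic reticulum, read 11.58 to 11.89 in minimal and 11.99 to 12.41 in extreme rats, a difference of 0.40 ± 0.09 (adjusted p = 0.119). It was 0.24 against minimal rat 1, with a state difference of 0.28 ± 0.11 in females. Of 14 glycolysis genes 0 were called. Aldoc, the brain form of aldolase, read 13.49 to 13.68 in minimal and 13.72 to 14.13 in extreme rats, without overlap, for a difference of 0.33 ± 0.08 (adjusted p = 0.148). It was 0.42 against minimal rat 1, and the state difference in females was 0.40 ± 0.14 (adjusted p = 0.176). Pfkl, a phosphofructokinase subunit, differed by -0.59 ± 0.21 (adjusted p = 0.305), by -0.17 against minimal rat 1 and by -0.92 ± 0.26 between the states in females.

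Transmitter receptor genes were measured in several lists, and 0 members of these were called. The median was 0.04 over 22 glutamate receptor genes, -0.01 over 9 GABA receptor genes and 0.01 over 27 monoamine and acetylcholine receptor genes. The subunits of the GABA-B receptor, which work as a pair, differed in opposite directions. Gabbr1 read 10.39 in minimal rat 1, 9.39 to 9.84 in the other minimal rats and 10.09 to 10.42 in extreme rats (difference 0.54 ± 0.16, adjusted p = 0.206). Gabbr2 read 12.05 in minimal rat 1, 12.56 to 12.63 in the other minimal rats and 11.60 to 12.29 in extreme rats (difference -0.45 ± 0.14, adjusted p = 0.223). In both, minimal rat 1 lay within the range of the extreme rats. The state difference in exposed females was 1.20 ± 0.21 for Gabbr1 (adjusted p = 0.0336) and -0.50 ± 0.36 for Gabbr2 (adjusted p = 0.478). Chrna4, a nicotinic receptor subunit, differed by -0.32 ± 0.08 (adjusted p = 0.166), with 7.93 to 8.24 in minimal and 7.67 to 7.87 in extreme rats and no overlap. Against minimal rat 1 it differed by -0.15, and between the states in females by 0.18 ± 0.32.

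**Figure D3:**
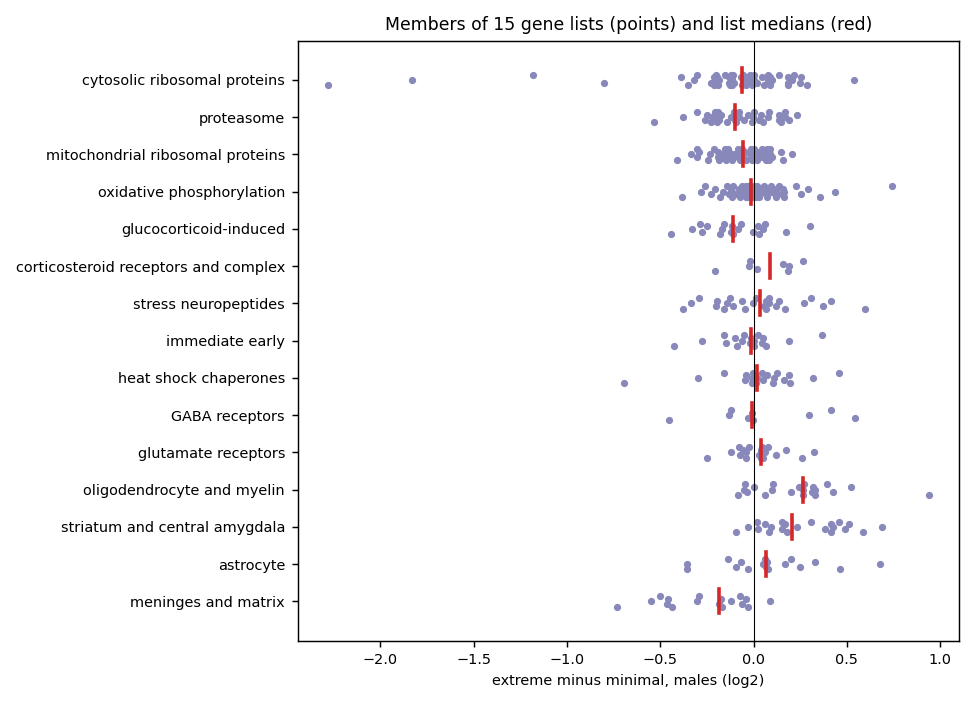
Difference between extreme and minimal males (horizontal axis, log2) for the measured members of 15 gene lists, 1 point a gene, with the median of each list as a red line. Most points lie near 0, the 3 lowest are Rpl37l1, Rpl7 and Rpl23 of the ribosomal list, and the lists of myelin and striatal genes have medians of 0.26 and 0.21.

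Markers of cell types and neighbouring regions were not called, but a few arrays stood apart in them. A marker score was computed for each array, as the mean over a list's measured genes of the value minus that gene's mean over the 10 arrays. Of 21 oligodendrocyte and myelin genes 0 were called, 17 were positive and the median was 0.26, with 1 at an unadjusted p under 0.05. Their score was 0.50 in extreme rat 1 and 0.80 in extreme rat 2, and between -0.38 and 0.04 in the other 8 rats. Mbp, a major protein of myelin, read 11.62 and 11.68 in these rats, 9.22 to 10.12 in the other extreme rats and 8.92 to 10.46 in minimal rats (difference 0.94 ± 0.42, adjusted p = 0.411). Of 22 genes of the striatum and central amygdala 0 were called, 20 were positive and the median was 0.21, with 2 at an unadjusted p under 0.05. Extreme rat 2 alone had a high striatal score, 0.94, while the other 9 rats lay between -0.18 and -0.02. Its value of Pde10a, a phosphodiesterase of striatal neurons, was 10.86, against 9.77 to 10.26 in the other extreme rats and 9.29 to 9.91 in minimal rats. Adora2a, a receptor of striatal output neurons, ranged from 8.27 to 11.69 over the 10 arrays.

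Genes of the meninges and matrix leaned the other way. Of 17 measured genes 0 were called, 16 were negative and the median was -0.19. Their score ranged from -0.39 to 0.72 in minimal rats and from -0.54 to 0.24 in extreme rats, so the groups overlapped widely. Igfbp2, a binding protein of insulin-like growth factors, differed by -0.73 ± 0.38 (adjusted p = 0.496). Of 17 astrocyte genes 0 were called (median 0.07). Mlc1, an astrocyte membrane protein, read 10.79 in minimal rat 1, 9.79 to 10.32 in the other minimal rats and 10.66 to 11.04 in extreme rats (difference 0.68 ± 0.15, adjusted p = 0.106). It differed by 0.09 against minimal rat 1, and between the states in females by 0.90 ± 0.20. Of 13 microglia genes 0 were called, and Ctss, a lysosomal protease, differed by -0.32 ± 0.10 (adjusted p = 0.223). The median was 0.01 over 17 excitatory pallial genes and 0.00 over 16 inhibitory neuron genes, with 0 called in each. Pvalb, a calcium-binding protein of fast-spiking interneurons, read 9.19 to 9.71 in minimal and 8.96 to 9.34 in extreme rats (difference -0.31 ± 0.10, adjusted p = 0.252). With the striatal score as a covariate 0 probes were called by limma, with the myelin score 1, and without extreme rat 2 there were 0. At an unadjusted p under 0.05 these fits had 1514, 1627 and 1567 probes. The 1 call with the myelin score was not among the 19. Scores of thalamic and excitatory pallial genes, each only 0.01 apart between the groups, also gave 0 calls as covariates. Leaving out any single array other than minimal rat 1 gave 0 or 1 call. The part of these markers in the 19 calls was not tested further.

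**Figure D4:**
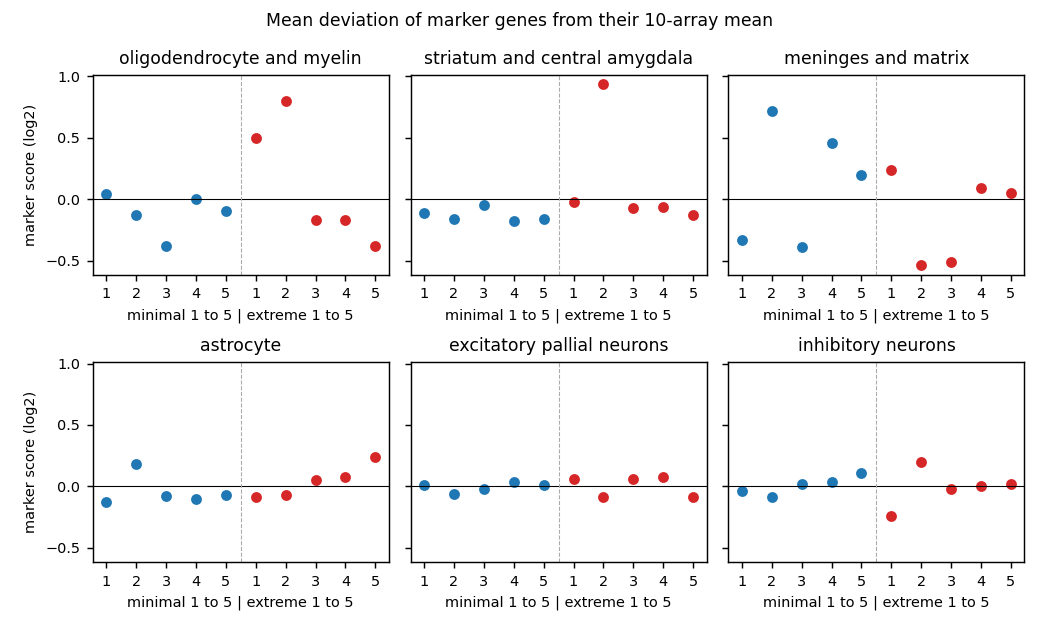
Marker score (vertical axes, log2, the mean deviation of a list's genes from their mean over the 10 arrays) of 6 marker lists in minimal rats 1 to 5 (blue) and extreme rats 1 to 5 (red). Extreme rats 1 and 2 lie high for myelin and extreme rat 2 for the striatal list. The excitatory score stays between -0.09 and 0.08, and the inhibitory score runs from -0.24 in extreme rat 1 to 0.20 in extreme rat 2.

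Over all lists, 922 genes were measured and 1 was called, while 49 were higher and 69 lower at an unadjusted p under 0.05. Over the 9165 named genes these counts were 527 and 532. Without minimal rat 1, 19 of the 922 (2.06%) were called. In that fit 1.57% of all tested probes were called, and 123 of the 9358 probes with a gene symbol. The ribosomal list then had 1 higher and 5 lower calls, with Rpl37l1 at -2.85 ± 0.09 (adjusted p = 5.64e-11), Rps29 at -1.0 ± 0.10 (adjusted p = 7.04e-05) and Rps20 at 0.68 ± 0.13 (adjusted p = 0.0219). Atp5pf at 0.94 ± 0.08, Mlc1 at 0.83 ± 0.12, Gabbr1 at 0.71 ± 0.11 and Actb at 0.50 ± 0.10 were among those called higher. In exposed females these 4 genes had state differences of 1.03, 0.90, 1.20 and 0.56, in the same direction. Others called there had little state difference in females. Dnajb5 was higher by 0.47 ± 0.10 (adjusted p = 0.0338), Psmc6 differed by -0.65 ± 0.10 (adjusted p = 0.00478), and Mrpl18 differed by -0.47 ± 0.09 (adjusted p = 0.0175). Their state differences in females were -0.16, 0.00 and -0.04 (adjusted p = 0.705, 0.998 and 0.913), and against minimal rat 1 they differed by 0.40, -0.06 and -0.14. In this fit all 4 minimal arrays were in the higher state and all 5 extreme arrays in the lower, so response and state cannot be told apart within it.

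The male difference was then set against the female one, in a fit over the 20 exposed arrays. All male identifiers end in R and all female ones begin with F. Sex and rat series therefore cannot be told apart in any difference between the sexes given here. Of the 13308 probes, 3 (0.0225%) differed between the sexes in their difference between extreme and minimal responders, and all 3 were lower for males. Apold1, an early response gene of blood vessel endothelium, read 7.45, 7.39, 7.33, 7.46 and 7.49 in minimal males 1 to 5, and 7.42, 7.46, 7.32, 7.10 and 7.23 in extreme males 1 to 5. The male groups overlapped, with a difference of -0.12 ± 0.08 (adjusted p = 0.627). In females the minimal rats lay between 7.22 and 7.40 and the extreme rats between 8.03 and 8.21, a difference of 0.78. The difference between the sexes was -0.90 ± 0.10 (adjusted p = 0.00015), and it was called under all 26 other settings and samples tried.

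Nfil3, a transcriptional repressor with a basic leucine zipper, followed the same pattern. Minimal males 1 to 5 read 7.99, 8.12, 8.28, 8.38 and 7.85, and extreme males 1 to 5 read 8.05, 7.98, 8.11, 8.07 and 7.92, so the extreme males lay within the minimal range. Their difference was -0.10 ± 0.10 (adjusted p = 0.763), while extreme females at 8.87 to 9.66 lay above minimal females at 7.90 to 8.40. The difference between the sexes was -1.14 ± 0.18 (adjusted p = 0.0184). With the array state as a covariate it was -1.05 and no longer called (adjusted p = 0.426). Over 26 other settings and samples Nfil3 was called in 19, at -1.24 to -1.04. The third probe, ILMN_1366573, has no gene symbol and differed between the sexes by -1.20 ± 0.18 (adjusted p = 0.00848). With the state as a covariate it was -0.96 (adjusted p = 0.426).

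Several regulators of the stress response had large values in this comparison without passing the threshold. Nfkbia differed between the sexes by -1.40 ± 0.25 (adjusted p = 0.0626), with extreme females at 10.92 to 11.21 above all other exposed rats except minimal male 4 at 10.97. For Sgk1 the difference between the sexes was -1.14 ± 0.37 (adjusted p = 0.378), and for Errfi1 it was -0.83 ± 0.22 (adjusted p = 0.32). Extreme males had a mean Sgk1 of 10.74 ± 0.37, close to the male controls at 10.74 ± 0.16, whereas extreme females had 12.75 ± 0.53 and female controls 11.28 ± 0.59. Poldip2, which binds a DNA polymerase subunit, differed by 0.49 ± 0.10 (adjusted p = 0.152), and Tmem252, a membrane protein, by -0.84 ± 0.18 (adjusted p = 0.291). For the called genes of the male comparison the difference between the sexes was -0.62 for Sgca, -0.86 for Ptn, 0.57 for Akt1 and 0.53 for Twnk, and their adjusted p were 0.329, 0.294, 0.4 and 0.32. The male differences of these 4 genes were therefore not shown to be particular to males.

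**Figure D5:**
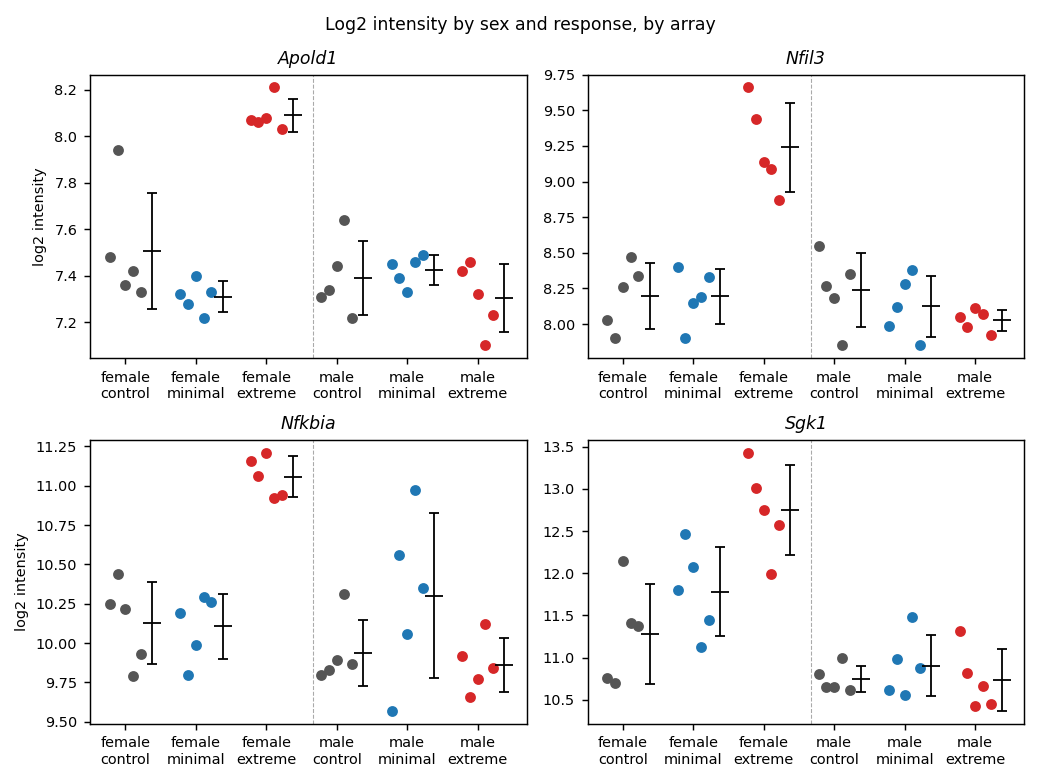
Log2 intensity (vertical axes, a separate scale for each gene) of Apold1, Nfil3, Nfkbia and Sgk1 in all 30 arrays by sex and group. Each point is 1 rat and bars beside the points are the mean and SD of 5 rats, and extreme females lie highest for Apold1 and Nfil3 while the male groups overlap.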

How the data were processed

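Amygdala RNA of 30 rats was measured on Illumina arrays, and the labels gave each array's group and sex. Rats are numbered here within each group in the order in which their arrays were deposited. The authors deposited log2 intensities of 22523 probes, which were used as given. Their log2 scale was judged from the range, 6.38 to 15.06, and the columns share a median of 7.02, as after quantile normalization. How they were background-corrected and with which software is not given in the sources. A further deposited table has 60 value columns whose names match no sample, and it was not used. The depth of an array has no count, and the number of arrays limits the precision.

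Symbols came from the platform annotation, with 1 symbol for 13793 probes, none for 8730 and several for 0, and 0 were updated. Probes above the array median on at least 5 of the 30 arrays were tested (13308, of which 3950 have no symbol). Group means were fitted with limma 3.58.1 in R 4.3.3 (lmFit and eBayes) within the 10 arrays, with 8 residual degrees of freedom. Benjamini-Hochberg adjustment ran over all tested probes, with a threshold of 0.05. The difference between the sexes was a contrast of 4 group means over the 20 exposed arrays, with 16 residual degrees of freedom. Probes that split all 30 arrays with a gap of at least 1, and at least 5 arrays a side, defined the array state. Its difference was fitted in the 10 exposed females with response as a further term. Of 42 gene lists, 41 had at least 3 measured genes, and a gene with several probes was given by the brightest.

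The groups compared, gene lists, tests and other settings were chosen with earlier results of these data known. Genes were named by a rule: the calls, filled to 14 each way by the smallest p, up to 4 genes of each list with the smallest p, the 5 each way with the smallest p for the sex difference, the probes of the array state, and Nr3c1, Nr3c2, Fkbp5, Sgk1, Tsc22d3, Crh, Bdnf and Fos. Not all genes of the rule are printed, and those printed were picked after their values were seen. Gad1, Camk2a, Slc17a6, Adora2a, Rps20 and 2 further probes of Actb were named outside the rule after their values were seen. The fitting steps were tested on simulated data. Other settings tried were the arrays in the fit, filters, weights for arrays, a robust variance trend, a replicate block, 1 probe per gene, the array state and 4 marker scores as covariates, normalization, a threshold of 0.01 and leaving out each array in turn.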

Additional observations from a re-analysis of the deposited data

Results flagged for a closer look

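In 14 of 154 groups of 5 values tested, 1 rat stood far from the others by Dixon's criterion. About 1 in 20 (7.7) would be flagged by chance in independent groups not chosen by their values. Most genes here were chosen by their values on these arrays, so that figure is only a rough guide. For the probes of the array state, the definition of the state largely fixed the flag of minimal rat 1. Minimal rat 1, the minimal array in the lower array state, stood below the other minimal rats for Rpl7 (10.43 against 12.30 to 12.53), Rpl37l1 (9.68 against 12.44 to 12.56) and Rpl23 (11.66 against 13.04 to 13.15). It was also lowest for Agpat1 (8.43), Clip1 (8.77), Hspe1 (10.10), Gabbr2 (12.05) and Nr3c2 (7.05).

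Other rats stood apart in single values. Extreme rat 2 was lowest for Sgca (7.76 against 7.93 to 7.98) and had the highest striatal marker score (0.94 against -0.13 to -0.02 in the other extreme rats). Extreme rat 1 was highest for Ier5, an immediate early gene (8.50 against 8.03 to 8.11), and a second probe of that gene differed between the groups by 0.12 with an adjusted p of 0.852. Extreme rat 5 was lowest for Fos (7.60 against 8.46 to 8.79). Minimal rat 2 was lowest for Ndufaf5 (10.18 against 10.36 to 10.43) and highest in the astrocyte score (0.18 against -0.13 to -0.07).

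The difference between extreme and minimal responders differed between the sexes in a direct test for Apold1 (-0.90), Nfil3 (-1.14) and the unnamed probe ILMN_1366573 (-1.20). Sex and rat series cannot be told apart in this test.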

How the results depend on the processing

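The count of 19 called probes became 76 in a fit of the 15 male arrays, 144 with array weights, 2 without a filter, and 0 in a fit of all 30 arrays, with robust variances and an intensity trend, or at a threshold of 0.01. It was 0 with the array state as a covariate in the 10 or in all 30 arrays and in lower-state arrays only. The first and the last of these rest on 1 minimal array and could hardly give a call, so their 0 says nothing about stability. With the striatal, thalamic or excitatory score it was 0, and with the myelin score 1. Leaving out 1 array gave 0 to 209, with 209 without male minimal rat 1, 1 without extreme rat 1 and 0 for the other 8. The other settings gave 18 to 25 calls. The sign of all 19 was kept in each of these fits except with the state in all 30 arrays, where Rpl7 was 0.04 and ILMN_1358580 was 0.11. That fit drew on all groups, and the cause was not tested. Changes of sign among values past the threshold in neither fit, of which there were 54, were not counted as reversals.

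The count of 1 called list gene became 10 in the fit of 15 male arrays, 3 with the filter at the 60th percentile, 18 with array weights and 4 with the replicate block. It was 0 in all 30 arrays, without a filter, with robust variances, with the state or any marker score, in lower-state arrays and at 0.01, and 0 to 19 when 1 array was left out. The 3 calls between the sexes became 7 in all 30 arrays and 1 with the state as a covariate, and 2 to 4 when 1 array was left out. The 124 calls for the state in exposed females became 1170 in all 30 arrays and 24 to 167 when 1 array was left out.

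Same-numbered male extreme and minimal arrays had deviations that correlated between -0.1904 and 0.2161, with a mean of 0.0315, while arrays of unlike number gave -0.0073. Only 2 of 5 matched best with their own number, so they were not treated as pairs. The number is the order of the arrays within a group, and the array titles name no pairs. The replicate block gave 25 calls, 12 of them shared with the 19, and 3 between the sexes.

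The limits are 5 rats a group, adjusted p just under the threshold, and a response that ran with the array state in 9 of 10 arrays. The values hold no background or detection measure, so dim probes such as those of Nr3c1, near the array median, have unknown precision. Probes without a symbol, 14 of the 19 calls, were not described by gene.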

Other observations

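Some gene groups of the amygdala that the comparison above does not describe were also measured in the 10 males. Of 82 voltage-gated channel genes 0 were called, with a median difference of 0.01 and a range from -0.29 to 0.31. Of 28 genes for synaptic vesicles and release 0 were called, 21 were positive and the median was 0.03. Of 49 genes for antigen presentation and interferon 0 were called (median 0.02), and of 17 inflammation genes 0 were called (median -0.09). Among 15 cholesterol synthesis genes, whose products feed membranes and myelin, 0 were called and 10 were negative (median -0.02). Of 9 histone genes 0 were called and 8 were negative, with a median of -0.06. The list of 41 translation factors had 0 calls and a median of 0.01, and that of 26 spliceosome genes 0 calls and a median of 0.07. At an unadjusted p under 0.05 in limma, 3 voltage-gated channel genes were higher and 3 lower. These counts were 2 and 1 for antigen presentation, 1 and 3 for inflammation and 2 and 1 for the spliceosome. Of the histone genes 0 were higher and 2 lower, and of the translation factors 0 were higher and 5 lower. The vesicle and cholesterol lists had 0. Over all 9165 named genes, 527 were higher and 532 lower at that p.

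Genes of blood and vessels varied between rats more than between groups. The score of 7 blood cell genes ran from -0.41 in extreme rat 1 to 0.47 in extreme rat 5, and from -0.27 to 0.27 in minimal rats. That of 11 endothelium and vessel wall genes ran from -0.25 to 0.16 in extreme rats and from -0.22 to 0.30 in minimal rats. Of these lists 0 genes were called, and the medians were -0.07 and -0.12.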
